A study of Mus musculus with 42 samples.

Results

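The 10 genes described here mark endothelial cells, the cells that line blood vessels: *Cdh5*, *Eng*, *Pecam1*, *Kdr*, *Flt1*, *Tek*, *Tie1*, *Emcn*, *Vwf* and *Esam*. They were chosen as a list and found by their gene ID, and all 10 are among the 27179 genes of the RNA-seq count table. All 10 had counts in each of the 12 libraries and passed the filter on low counts in every comparison. They are no markers of the cells that were sorted. The libraries were made from c-Kit+ differentiating spermatogonia and Thy1+ undifferentiated spermatogonia of C57BL/6J male mice at 10 days post-partum (dpp), with 3 libraries in each of 4 groups. Control pups were *Ddx4-Cre*; *Chd8* +/F and mutant pups were *Ddx4-Cre*; *Chd8* F/-, so controls also carried Cre and a floxed allele of *Chd8*, a gene for a chromatin remodeler. *Ddx4-Cre* acts in germ cells. The deleted allele of the mutant pups was inherited from the father, so their endothelial cells were *Chd8* F/- and those of the controls +/F, and the endothelial cells also differed in genotype. Testes were digested with collagenase to take away interstitial cells, the suspension was strained and plated to take away Sertoli and other somatic cells, c-Kit+ cells were taken with magnetic beads, and Thy1+ cells were taken from what flowed through. The study's methods give the testes of 3 pups for each analysis, and its figure legend gives n = 3 per genotype. Neither says whether each library is a separate sort, so the p-values here measure the spread between these libraries, which may be technical.

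Endothelial cells hold together through adhesion proteins at their junctions and survive and sprout under signals from several receptor families. Vascular endothelial growth factor (VEGF) acts through receptor tyrosine kinases, angiopoietins act through the TIE kinases, and bone morphogenetic proteins (BMPs) act through the receptor ALK1 with endoglin as co-receptor. In the testis, blood vessels run in the interstitium between the seminiferous tubules and do not enter them.

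Counts totalled 32266861 to 45396233 per library. *Chd8* itself had 280.9 ± 22.0 normalised counts (CPM, reads relative to the size of the library, scaled by TMM over the 12 libraries; mean ± SD, n = 3) in control and 305.5 ± 9.49 in mutant c-Kit+ cells, and 269.6 ± 9.41 and 274.4 ± 20.7 in control and mutant Thy1+ cells. Cre removes only some of its exons, so a count over the whole gene does not check the genotype labels. The sorting antigens followed the labels: *Thy1* was at 0.436 to 1.07 CPM in the 6 c-Kit+ libraries and 11.7 to 17.1 CPM in the 6 Thy1+ libraries, and *Kit* was at 626.2 to 781.6 CPM against 171.4 to 432.0 CPM. Genes of Sertoli cells, the somatic cells inside the tubules, differed most between replicates: their summed level was 2308 CPM in control Thy1+ replicate 1 against 490.3 and 529.4 in the other control Thy1+ libraries, and 3092 CPM in mutant Thy1+ replicate 1 against 991.5 and 1060.

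The genes lie apart in the mm10 genome, in the coordinates of the count table. *Cdh5* spans chr8:104101625-104144502, *Eng* chr2:32646595-32682669, *Pecam1* chr11:106654218-106715281, *Emcn* chr3:137341078-137431069, *Vwf* chr6:125552963-125686677 and *Esam* chr9:37528089-37538319. *Kdr* (chr5:75933265-75978428) and *Flt1* (chr5:147562196-147725988) share a chromosome, as do *Tek* (chr4:94739300-94874939) and *Tie1* (chr4:118471191-118489849). Counting used no strand, and reads over exons of 2 genes were not assigned. *Cdh5* shares 847 of its 3986 exon bases with a gene on the other strand (gene ID 100861701), and *Eng* shares 61 of 3572 with *Fpgs*, so reads there may be missing from both counts. No other gene of the 10 shares exon bases.

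RefSeq promoter sequences were given for 6 of the 10 genes (*Eng*, *Kdr*, *Flt1*, *Tek*, *Tie1* and *Emcn*), on build GRCm38.p6. Genes of endothelial cells are known for binding sites of ETS factors, whose core is GGAA, and the 250 bases upstream of the start site are shown for the VEGF receptors *Kdr* and *Flt1* and the TIE receptors *Tek* and *Tie1*, since each pair parts in the levels described below. The sequences run 5′ to 3′ on the strand of the gene, and capitals mark GGAA or its reverse complement TTCC. They cover chr5:75978456-75978705 (minus strand), chr5:147726012-147726261 (minus strand), chr4:94739039-94739288 (plus strand) and chr4:118489850-118490099 (minus strand).
Kdr: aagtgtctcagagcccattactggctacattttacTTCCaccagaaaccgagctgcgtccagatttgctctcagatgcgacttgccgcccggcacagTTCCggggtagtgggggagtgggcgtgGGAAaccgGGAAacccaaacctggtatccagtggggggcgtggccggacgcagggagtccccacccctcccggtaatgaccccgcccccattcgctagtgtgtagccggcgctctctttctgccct
Flt1: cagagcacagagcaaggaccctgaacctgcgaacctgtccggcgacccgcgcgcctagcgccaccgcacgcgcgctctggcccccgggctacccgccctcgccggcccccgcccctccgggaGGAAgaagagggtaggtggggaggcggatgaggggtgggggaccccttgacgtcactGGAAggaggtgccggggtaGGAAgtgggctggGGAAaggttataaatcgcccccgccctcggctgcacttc
Tek: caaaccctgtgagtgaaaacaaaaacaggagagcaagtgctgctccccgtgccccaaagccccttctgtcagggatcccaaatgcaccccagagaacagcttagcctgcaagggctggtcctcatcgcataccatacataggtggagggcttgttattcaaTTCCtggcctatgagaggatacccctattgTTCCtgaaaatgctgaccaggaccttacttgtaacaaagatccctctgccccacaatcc
Tie1: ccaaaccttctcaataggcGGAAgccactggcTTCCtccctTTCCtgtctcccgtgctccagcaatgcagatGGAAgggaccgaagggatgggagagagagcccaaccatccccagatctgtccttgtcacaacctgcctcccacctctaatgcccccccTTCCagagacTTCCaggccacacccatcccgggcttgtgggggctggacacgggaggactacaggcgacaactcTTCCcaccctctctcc
*Tie1* holds 7 such cores, *Kdr* and *Flt1* hold 4 each, and *Tek* holds 2. *Emcn* holds 4 and *Eng* holds 3. Of 32851 mouse promoters of the same length, 93.4% hold at least 1, the median is 3, 33.4% hold at least 4 and 3.82% hold at least 7, so the count for *Tie1* is the one in the upper tail. *Flt1* alone of the 6 has a TATA sequence (TATAAA or TTTATA, found in 12.4% of all promoters). A match is a description of these letters and not a binding site.

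In control c-Kit+ cells the junction cadherin *Cdh5* was the highest of the 10 per length of exon, at 8.86 ± 1.58 CPM per kb (n = 3), followed by *Eng*, the co-receptor endoglin, at 4.51 ± 1.09. No library of *Cdh5* overlapped a library of *Eng*, and none of *Eng* overlapped the third, *Pecam1* (1.94 ± 0.515). From there down to *Vwf* at 0.538 ± 0.191, each gene overlapped the next in order. *Cdh5* and *Eng* also led in the other 3 groups, without overlap with the genes after them. In control Thy1+ cells *Cdh5* reached 47.0 ± 8.29 and *Eng* 21.4 ± 5.13 CPM per kb, while the third gene, *Esam*, was at 4.28 ± 2.28.

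**Figure D1:**
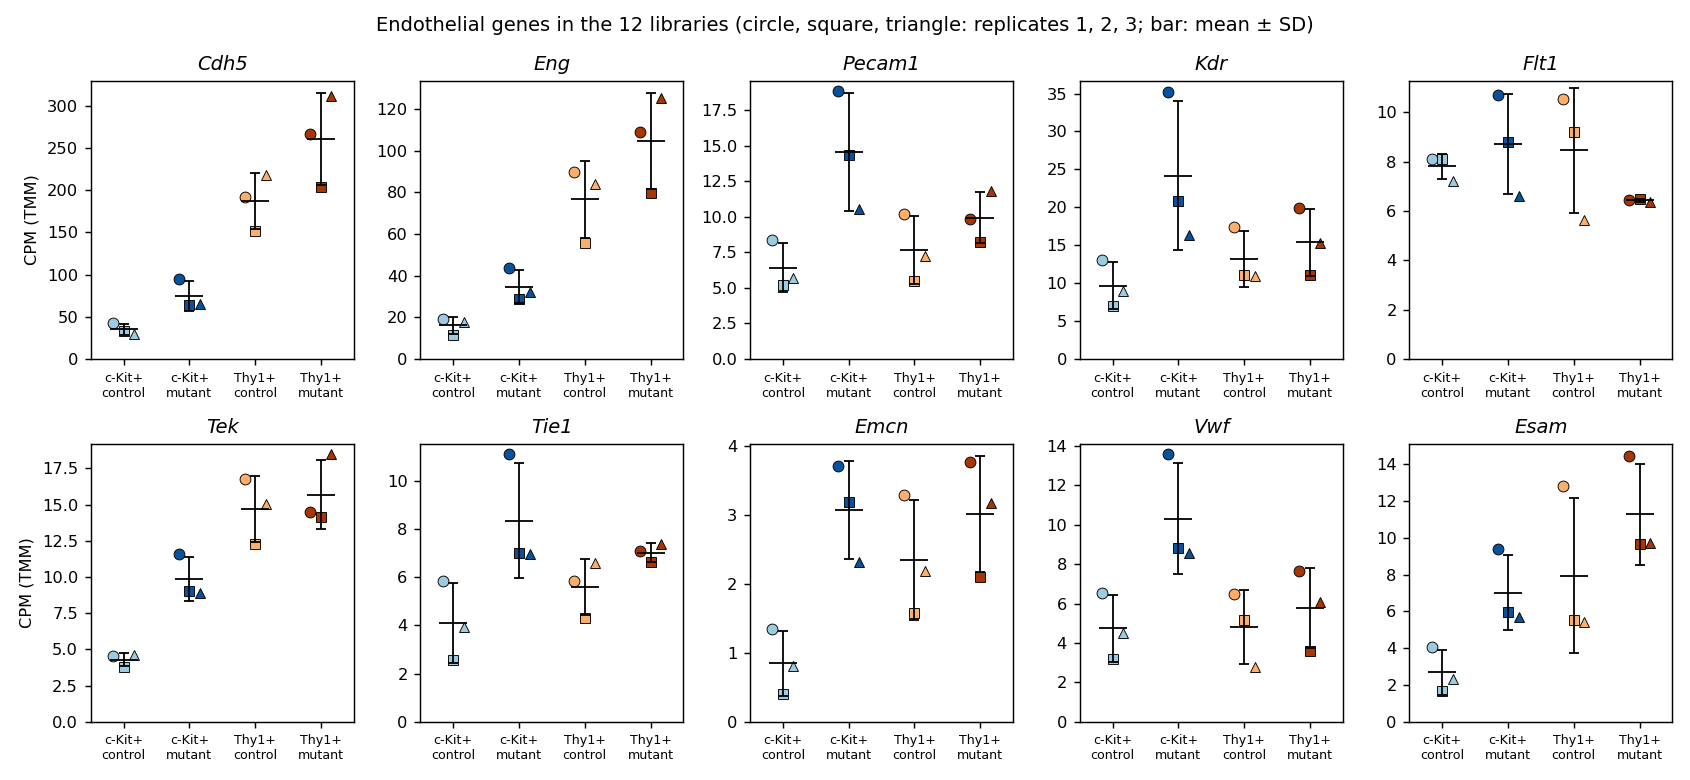
CPM (TMM scale, linear axes from 0) of the 10 endothelial genes in the 12 libraries by group; symbols are replicates 1, 2 and 3, and bars are mean ± SD. *Cdh5*, *Eng*, *Tek* and *Esam* climb in mean from c-Kit+ to Thy1+ cells, whereas *Pecam1*, *Kdr*, *Tie1* and *Vwf* have their highest mean in mutant c-Kit+ cells. *Flt1* and *Emcn* do so too, but only just (8.72 against 8.46 CPM in control Thy1+ cells, and 3.08 against 3.02 CPM in mutant Thy1+ cells).

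The first comparison asked what differed between mutant and control c-Kit+ cells. In mutant c-Kit+ cells 9 of the 10 endothelial genes were higher, by 1.95-fold (*Tie1*) to 3.47-fold (*Emcn*), and *Flt1* was not called. Among all 17134 genes tested, 14.8% were called higher and 7.41% lower. A call needed a false discovery rate (FDR) under 0.05 by edgeR's quasi-likelihood F test and an absolute log2 fold change over 0.5. The median log2 fold change of the 10 genes was 1.09, against 0.01 over all genes tested. Their summed level was 77.3 to 113 CPM in the 3 control libraries and 163.7 to 252.6 CPM in the 3 mutant libraries. In bulk samples more cells of a type and more RNA per cell cannot be told apart.

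Among the adhesion genes, *Cdh5*, which encodes the cadherin of endothelial junctions, was at 42.2, 33.8 and 29.9 CPM in the control libraries and 94.8, 63.9 and 65.6 CPM in the mutant libraries. All mutant libraries lay above all control libraries, as was so for 31.6% of genes tested. The log2 fold change was 1.02 (SE 0.16, FDR 0.00104). *Pecam1*, which encodes the adhesion molecule CD31, was at 8.36, 5.18 and 5.72 CPM in the control and 18.8, 14.3 and 10.54 CPM in the mutant libraries (log2 fold change 1.12, SE 0.23, FDR 0.00393). *Esam*, an adhesion molecule of endothelial tight junctions, was at 4.05, 1.69 and 2.32 CPM and then 9.39, 5.96 and 5.70 CPM (1.33, SE 0.31, FDR 0.00763). Mutant replicate 1 was the highest of the 3 mutant libraries for each of these genes. *Emcn*, which encodes the surface sialomucin endomucin, had the largest fold and the fewest reads, with 46, 14 and 28 counts in the control and 126, 131 and 80 in mutant libraries (log2 fold change 1.79, SE 0.39, FDR 0.00492). *Vwf*, which encodes the clotting factor carrier that endothelial cells store and release, was at 6.52, 3.18 and 4.53 CPM in the control and 13.6, 8.81 and 8.57 CPM in the mutant libraries (1.06, SE 0.26, FDR 0.00983).

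Of the VEGF receptors, *Kdr*, which encodes the main signalling receptor VEGFR2, was at 13.1, 6.98 and 9.03 CPM in the control and 35.2, 20.9 and 16.4 CPM in the mutant c-Kit+ libraries. Its groups did not overlap, and the log2 fold change was 1.26 (SE 0.29, FDR 0.00621). *Flt1*, which encodes VEGFR1, a receptor that also exists as a secreted decoy, was at 8.10, 8.10 and 7.23 CPM in the control and 10.7, 8.81 and 6.63 CPM in the mutant libraries. These groups overlapped, and the log2 fold change of 0.10 had a 95% interval from -0.29 to 0.50 (SE 0.18, FDR 0.687). A doubling of *Flt1* thus lies outside its interval. Within a library, the ratio of *Kdr* to *Flt1* reads per exon base was 1.85, 0.992 and 1.44 in control and 3.78, 2.72 and 2.84 in mutant c-Kit+ cells. Every mutant ratio was above every control ratio (two-sided exact permutation p = 0.1, the smallest that 3 libraries against 3 allow). This pair was picked after the values were seen, as were the 7 other pairs compared in the same way, and over the 32 tests none had an adjusted p below 0.356.

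The TIE receptors were both called. *Tek*, which encodes the angiopoietin receptor TIE2, was at 4.54, 3.75 and 4.59 CPM in the control and 11.6, 9.03 and 8.92 CPM in the mutant libraries (log2 fold change 1.14, SE 0.17, FDR 6.86e-04). *Tie1*, which encodes the partner of TIE2, was at 5.83, 2.55 and 3.92 CPM and then 11.1, 6.99 and 6.95 CPM (0.97, SE 0.29, FDR 0.0235). Here the lowest mutant library stood only a little above the highest control library, and the call was lost without control replicate 2, control replicate 3 or mutant replicate 1 (highest FDR 0.105). *Eng* was at 19.0, 11.7 and 17.6 CPM in the control and 43.6, 28.8 and 32.1 CPM in the mutant libraries (1.05, SE 0.20, FDR 0.00217). The calls of the other 8 genes called held whichever library was left out.

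The other vascular genes of a longer list were higher as well. Of 80 listed, 75 were tested, 32 were called higher and 0 lower by edgeR (44 and 3 at an unadjusted p under 0.05, where all genes gave 25.2% and 22.6%, and 34 and 0 called by DESeq2), with a median log2 fold change of 0.65. Without mutant replicate 1 the number called fell to 20. Among VEGF ligands and co-receptors 4 of 8 were called, including the neuropilins *Nrp1* (44.6 ± 3.78 to 86.0 ± 13.2 CPM, FDR 3.6e-04) and *Nrp2* (23.0 ± 1.38 to 46.4 ± 7.86 CPM, FDR 3.89e-04) and the ligand *Vegfa* (36.2 ± 4.81 to 54.2 ± 5.39 CPM, FDR 0.00462). The ligand *Vegfb* was at 21.3 ± 2.14 and 19.5 ± 1.62 CPM. Of the 3 tested partners of the TIE receptors, the phosphatase *Ptprb* was called (10.9 ± 3.97 to 23.0 ± 5.28 CPM, FDR 0.0102), whereas the ligands *Angpt1* (log2 fold change 0.99, FDR 0.0829) and *Angpt2* (0.55, FDR 0.0775) were not. Of 8 tested genes of the endoglin and ALK1 pathway 4 were called, among them its target *Id3* (20.5 ± 6.37 to 47.5 ± 12.1 CPM, FDR 0.00232). The pathway's receptor *Bmpr2* (57.0 ± 5.86 and 57.7 ± 0.202 CPM) and its mediators *Smad1* and *Smad5* (log2 fold change -0.20 and 0.00) were not called.

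Adhesion and surface genes had 8 of 14 called, including the junction gene *Jam2* (29.7 ± 11.2 to 74.5 ± 0.858 CPM) and *Cd34* (48.1 ± 9.70 to 88.4 ± 10.51 CPM). In Thy1+ replicates 1, 2 and 3 *Jam2* was at 65.8, 18.7 and 21.4 CPM (control) and 92.8, 35.3 and 38.8 CPM (mutant). Replicate 1 was thus highest, as it was for the Sertoli genes, and which cells its reads come from was not tested. *Mcam* stood at a log2 fold change of -0.46 (FDR 5.37e-04), which did not reach the minimum fold. Of 12 transcription factors 4 were called, including *Nr2f2*, which specifies veins (45.9 ± 4.08 to 79.3 ± 7.17 CPM). The ETS factors *Erg* (46.2 ± 2.79 and 43.0 ± 2.88 CPM) and *Ets1* (55.7 ± 2.56 and 66.1 ± 3.92 CPM) were not called. In the Notch and arteriovenous list 1 of 9 was called, the ligand *Dll4* (5.28 ± 1.02 to 9.23 ± 2.50 CPM, FDR 0.0235), and neither of the 2 tested partners of VWF was. Of 19 other endothelial genes tested 10 were called, including the caveolar gene *Cav1* (70.2 ± 5.18 to 148.9 ± 20.4 CPM, FDR 1.88e-04).

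Markers of other somatic cells moved with the endothelial genes in c-Kit+ cells. All 7 Sertoli genes were called higher (median log2 fold change 1.24, summed level 618.3 to 1653 CPM in the control and 2605 to 2871 CPM in the mutant libraries). All 7 stromal genes were higher as well (median 0.80, 1816 to 2274 CPM and 3293 to 4379 CPM), as were 5 of 7 Leydig cell genes (630.2 to 1227 CPM and 1179 to 2015 CPM) and 4 of 5 tested mast cell genes (36.1 to 48.6 CPM and 67.8 to 98.2 CPM). Pericyte genes, which mark the cells that wrap capillaries, had 3 of 6 called (35.5 to 43.1 CPM and 60.0 to 75.4 CPM). Peritubular myoid genes had 3 of 6 (47.1 to 64.5 CPM and 92.5 to 113.4 CPM), lymphatic genes 1 of 3 (27.8 to 39.5 CPM and 58.6 to 67.3 CPM) and macrophage genes 1 of 8 (22.0 to 59.0 CPM and 57.3 to 80.2 CPM). Of 4 tested platelet genes 0 were higher and *Gp1ba* was lower (9.50 to 14.4 CPM and 9.58 to 14.3 CPM for the whole list), and the single erythroid gene tested, *Alas2*, was not called (1.83 to 2.16 CPM and 2.40 to 3.01 CPM for the list). Of 10 germ cell genes 3 were lower and 0 higher (3627 to 4274 CPM in the control and 2808 to 3234 CPM in the mutant libraries). The part of these other cell types in the endothelial result was not tested. Without replicate 1 of both groups, 9 of the 10 endothelial genes were called.

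**Figure D2:**
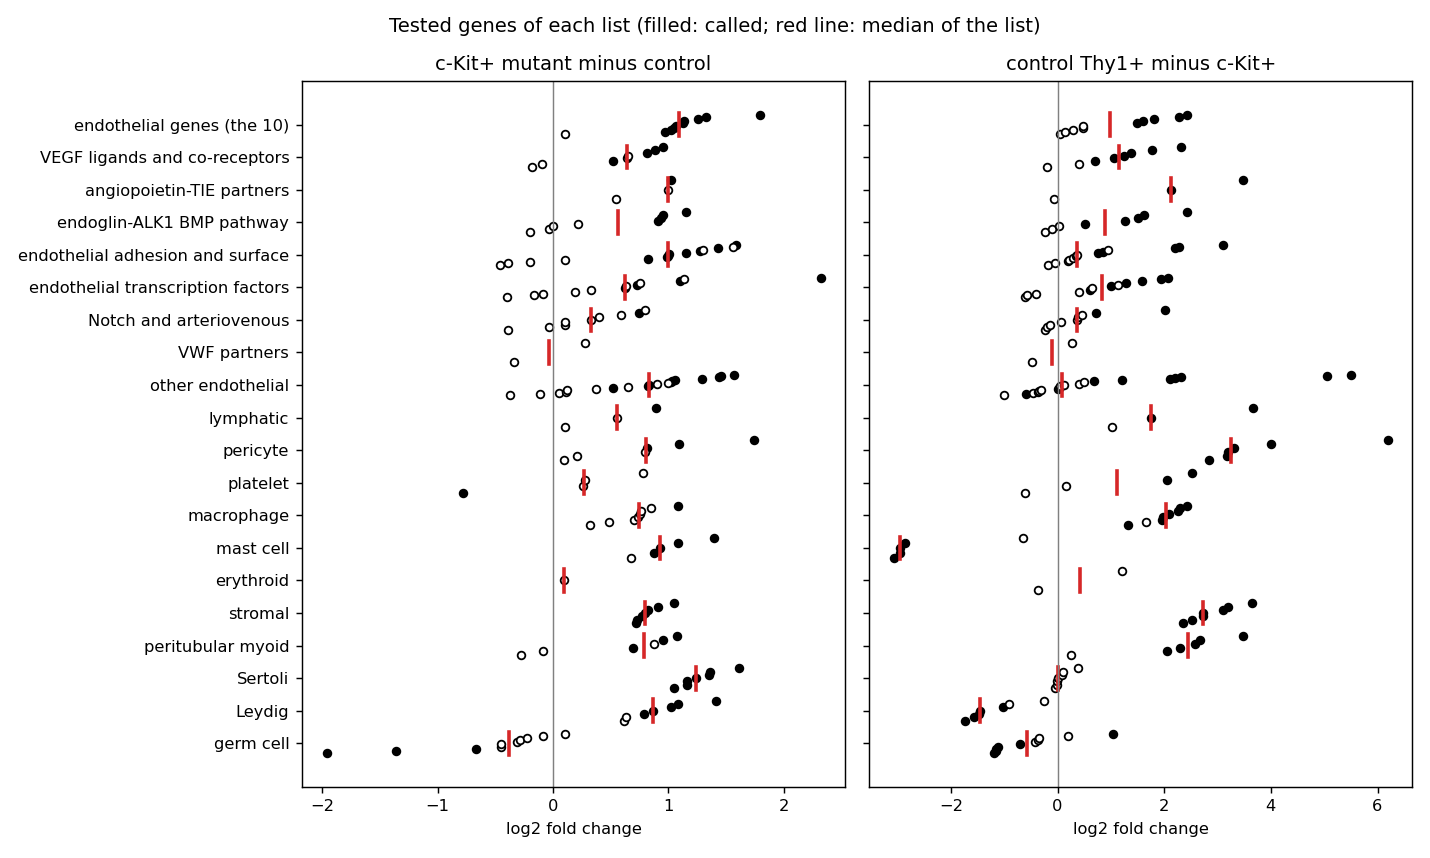
Log2 fold changes of every tested gene of each list, for mutant minus control c-Kit+ cells (left) and for control Thy1+ minus c-Kit+ cells (right); filled points were called and red lines are medians. On the left 9 of the 10 endothelial genes are called and stand near the Sertoli and stromal genes; on the right they spread from 0.05 to 2.43, while all 6 pericyte genes and all 7 stromal genes are called higher.

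In Thy1+ cells 0 of the 10 genes were called between genotypes, and 0 of 17416 genes tested were called (0%) by edgeR without a replicate block. That share depended on the test: over all genes DESeq2 called 384 (2.2%), edgeR's exact test 319 (1.83%) and the test with the replicate number as a block 1414. The unblocked edgeR test gave 1 of the 10 at an unadjusted p under 0.05, *Cdh5*, against 4.66% of all genes tested in that direction, and DESeq2 and edgeR's exact test also called 0 of the 10. The median log2 fold change of the 10 was 0.35, against 0.02 over all genes. *Cdh5* was at 191.7, 152.2 and 217.8 CPM in the control and 267.2, 203.9 and 311.8 CPM in the mutant Thy1+ libraries (log2 fold change 0.49, SE 0.18, FDR 0.358). The groups overlapped, since mutant replicate 2 lay below control replicate 3, but within each same-numbered pair the mutant library was higher. *Eng* was at 89.9, 55.7 and 84.2 CPM in the control and 109.1, 79.7 and 125.1 CPM in the mutant libraries (0.46, SE 0.21, FDR 0.42), also higher in all 3 pairs. Replicate 2 was the lowest of its group for both genes and both genotypes. *Tie1*, *Emcn* and *Esam* were higher in all 3 pairs too, which makes 5 of the 10, and 30.7% of all genes tested were.

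*Tie1* was the only gene of the 10 whose mutant Thy1+ libraries (7.09, 6.61 and 7.36 CPM) all lay above the control libraries (5.84, 4.31 and 6.58 CPM), as did 6.49% of all genes tested. Its log2 fold change was 0.34 (SE 0.20, FDR 0.501). *Flt1* had the only negative value, -0.39 (SE 0.24, FDR 0.516), with 10.6, 9.19 and 5.64 CPM in the control and 6.44, 6.50 and 6.39 CPM in the mutant libraries. *Tek* had 0.10 with a 95% interval from -0.30 to 0.50. The replicate numbers pair these libraries by the correlation of their deviations. With the replicate number as a block, 3 of the 10 passed the FDR and all 3 were higher, against 15.6% of all genes tested: *Cdh5* (log2 fold change 0.48, SE 0.05, FDR 7.28e-06), *Eng* (0.46, SE 0.06, FDR 7.81e-05) and *Esam*. The first 2 lay under the minimum of 0.5, so 1 of the 10 was called, *Esam* (12.8, 5.56 and 5.44 CPM in control, 14.5, 9.68 and 9.72 CPM in the mutant libraries; 0.59, FDR 0.00723, against 0.51 and 0.544 without the block). With the block 3.2% of all genes tested were called higher and 4.92% lower. Of the 77 other vascular genes tested, the quasi-likelihood test called 0 without the block and 10 with it, 5 in each direction. Without the block DESeq2 called *Hhex*, *Plvap* and *Mcam* lower, and edgeR's exact test called these and *Selp* lower. *Plvap* was at 17.4, 9.36 and 10.2 CPM in the control and 4.75, 4.35 and 2.72 CPM in the mutant libraries. With the block its log2 fold change was -1.61 (FDR 8.19e-06), opposite in direction to *Cdh5*, *Eng* and *Esam*. The summed level of the 10 genes was 262.6 to 365.1 CPM in the control and 345.5 to 515.1 CPM in the mutant libraries, and was higher in the mutant library of each same-numbered pair. *Cdh5* and *Eng* made up most of this sum. Without them replicates 1, 2 and 3 were at 83.5, 54.7 and 55.8 CPM (control) and 83.6, 61.9 and 78.2 CPM (mutant). These ranges overlapped, and replicate 1 hardly differed. Stromal genes were at 11120 to 14500 CPM and 12460 to 19190 CPM. The quasi-likelihood test of the 2 Thy1+ groups without the block called 0 genes of any of the other lists.

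Whether the genotype effect differed between the populations was tested in 1 fit of the 12 libraries. For each of the 10 genes the effect in c-Kit+ cells was the larger by value, by 0.55 (*Flt1*) to 1.5 (*Emcn*) on the log2 scale, and the median difference was 0.84 against 0.08 over all genes. Without a replicate block none of the 10 passed the FDR in edgeR, nor did any of the 18002 genes tested (0%). At an unadjusted p under 0.05 there were 3 of the 10 above 0 (*Tek*, *Kdr* and *Emcn*), against 8.21% of all genes tested. *Tek* had the smallest p (difference 1.10, SE 0.24, unadjusted p = 5.66e-04 in this edgeR fit, FDR 0.336), and DESeq2 called it at FDR 0.0370 and none of the other 9, against 0.233% of all genes tested that it called higher. With the replicate number as a block edgeR called *Eng* (0.67, FDR 0.0422), *Tek* (1.10, FDR 0.0229) and *Kdr* (1.08, FDR 0.0262), all with the larger effect in c-Kit+ cells, against 2.34% of all genes tested. Over the 4 groups 13 of 18 same-numbered pairs correlated over 0.1, so the numbers were not taken as pairs in this fit, and a larger effect in c-Kit+ cells rests on that choice of test.

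The next comparison asked how the control populations differ. In Thy1+ cells 5 of the 10 genes were higher than in c-Kit+ cells, by 2.82-fold (*Emcn*) to 5.39-fold (*Cdh5*), and 0 were lower, while 20.7% of 17350 genes tested were called higher and 7.08% lower. These control c-Kit+ libraries also serve in the genotype comparison, so the values of the comparisons are not independent. *Cdh5* differed by 2.43 on the log2 scale (SE 0.17, FDR 2.6e-05), *Eng* 2.28 (SE 0.23, FDR 1.65e-04) and *Tek* 1.80 (SE 0.18, FDR 1.62e-04). *Tek* was at 16.8, 12.3 and 15.0 CPM in control Thy1+ libraries, all above the 3 control c-Kit+ libraries, as held for 29.5% of genes tested. *Esam* (1.60, SE 0.43, FDR 0.0206) and *Emcn* (1.5, SE 0.46, FDR 0.0342; 3.29, 1.57 and 2.19 CPM in Thy1+ libraries) were called with less margin. Without c-Kit+ replicate 2 or 3 both calls were lost and 3 genes stayed called, and *Emcn* was also lost without Thy1+ replicate 1 or 3.

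The other 5 genes were not called in this comparison. *Pecam1* was at 10.2, 5.51 and 7.22 CPM in control Thy1+ libraries, a log2 fold change of 0.28 with a 95% interval from -0.36 to 0.92 (FDR 0.458). *Kdr* was at 17.5, 11.1 and 10.9 CPM (0.47, -0.15 to 1.10, FDR 0.207). *Tie1* also had 0.47 (-0.24 to 1.18, FDR 0.266), *Flt1* had 0.14 (-0.40 to 0.69, FDR 0.666) and *Vwf*, at 6.49, 5.18 and 2.78 CPM, had 0.05 (-0.77 to 0.88, FDR 0.924). The upper ends of these 5 intervals lie below the lower ends for *Cdh5*, *Eng* and *Tek*.

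Ratios within a library give the same split without a scaling between libraries. These pairs were picked after the values were seen, from the same libraries, so the ratios are not separate support for the split. *Cdh5* to *Pecam1*, per exon base, was 3.70 to 5.41 over the 6 c-Kit+ libraries and 15.6 to 25 over the 6 Thy1+ libraries. *Eng* to *Pecam1* was 1.86 to 2.85 and 8.15 to 10.8, and *Tek* to *Tie1* was 0.650 to 1.23 and 1.71 to 2.40. For each of these 3 ratios the populations did not overlap in either genotype. The exact permutation p was 0.1 in control and in mutant, the smallest possible (adjusted p 0.356 over the 32 tests). *Tie1* to *Pecam1* (0.416 to 0.594 and 0.488 to 0.777) and *Pecam1* to *Kdr* (0.883 to 1.22 and 0.816 to 1.28) overlapped. Between genotypes within a population, *Cdh5* to *Pecam1* had means of 4.64 ± 0.67 and 4.35 ± 0.747 in control and mutant c-Kit+ cells and of 21.2 ± 4.95 and 21.7 ± 0.966 in Thy1+ cells. The ratio of *Cdh5* to *Pdgfra*, a gene of stromal cells, was 0.276 to 0.374 in c-Kit+ and 0.260 to 0.289 in Thy1+ libraries. Within each genotype these populations did not overlap either (exact permutation p = 0.1 in both), with a ratio of Thy1+ to c-Kit+ means of 0.808 in control and 0.787 in mutant cells, against 4.56 and 4.99 for *Cdh5* to *Pecam1*. Which cells the reads of *Cdh5*, *Eng* and *Tek* come from was not tested.

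**Figure D3:**
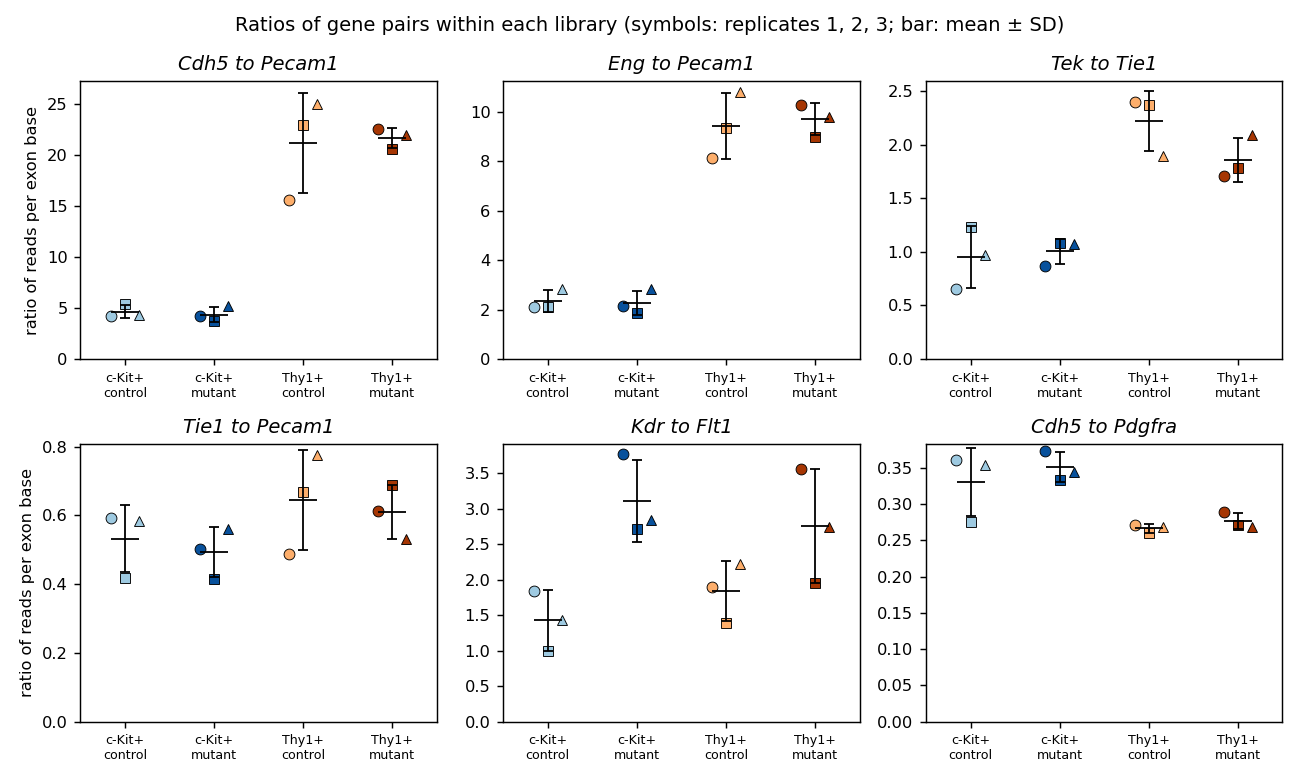
Ratios of reads per exon base of 6 gene pairs within each library, on linear axes from 0; symbols are replicates and bars are mean ± SD. *Cdh5* and *Eng* relative to *Pecam1*, and *Tek* relative to *Tie1*, are higher in all 6 Thy1+ libraries than in all 6 c-Kit+ libraries, whereas *Kdr* to *Flt1* parts the genotypes of c-Kit+ cells.

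Of the 75 other vascular genes tested between the control populations, 33 were called higher and 1 lower (median 0.45). Those higher included *Angpt2* (3.52 ± 0.819 CPM for c-Kit+ and 38.4 ± 6.25 CPM for Thy1+ cells, FDR 1.69e-05), the surface sialomucin *Cd34* (48.1 ± 9.70 and 407.2 ± 74.5 CPM, FDR 1.69e-05), *Nrp1* (44.6 ± 3.78 and 217.6 ± 33.0 CPM, FDR 1.67e-05) and *Ramp2*, a subunit of the adrenomedullin receptor (7.89 ± 0.836 and 38.4 ± 7.40 CPM, FDR 3.2e-05). *Ptprb* (10.9 ± 3.97 and 10.2 ± 4.90 CPM) and *Dll4* (5.28 ± 1.02 and 4.52 ± 0.209 CPM) were not called. The gene called lower was *Apln*, which encodes a peptide ligand (21.1 ± 0.279 and 13.7 ± 1.13 CPM, FDR 0.00679).

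Other cell types parted between the populations too. All 6 pericyte genes were higher in control Thy1+ than in control c-Kit+ cells (median log2 fold change 3.25, summed level 314.0 to 519.3 CPM against 35.5 to 43.1 CPM), led by *Rgs5* (0.714 ± 0.120 and 51.3 ± 22.0 CPM). All 7 stromal genes (median 2.73, 11120 to 14500 CPM against 1816 to 2274 CPM), 7 of 8 macrophage genes (98.3 to 189.7 CPM against 22.0 to 59.0 CPM), 5 of 6 peritubular myoid genes (269.9 to 486.5 CPM against 47.1 to 64.5 CPM), 2 of 3 lymphatic genes (96.7 to 126.9 CPM against 27.8 to 39.5 CPM) and 2 of 4 platelet genes were higher too. Leydig cell genes had 5 of 7 called lower (236.5 to 425.9 CPM against 630.2 to 1227 CPM) and mast cell genes 4 of 5 (11.8 to 16.6 CPM against 36.1 to 48.6 CPM). Of the 7 Sertoli genes 0 were called by edgeR (0 at an unadjusted p under 0.05). Of 10 germ cell genes 5 were lower (1930 to 3050 CPM against 3627 to 4274 CPM for the whole list). *Zbtb16*, a gene of undifferentiated spermatogonia, was higher (108.4 ± 4.67 CPM for c-Kit+ and 219.6 ± 26.8 CPM for Thy1+ cells). The part of these cell types in the levels of the endothelial genes was not tested. *Cdh5*, *Eng* and *Tek* stayed called without replicate 1 of both groups.

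Between the mutant populations 3 of the 10 genes were called higher in Thy1+ cells, and 0 lower, against 15.3% and 5.03% of 17346 genes tested, and the median of the 10 was -0.10 (-0.03 over all genes). *Cdh5* (log2 fold change 1.84, SE 0.19, FDR 2.31e-04), *Eng* (1.63, SE 0.20, FDR 5.19e-04) and *Tek* (0.71, SE 0.17, FDR 0.0150) were called. The last was at 14.5, 14.1 and 18.5 CPM in the mutant Thy1+ libraries, and its call was lost without c-Kit+ replicate 2, c-Kit+ replicate 3 or Thy1+ replicate 3, each of which left 2 genes called. *Esam* missed the threshold (0.73, FDR 0.0555), and *Emcn* had 0.01 with a 95% interval from -0.64 to 0.66. *Vwf*, at 7.63, 3.62 and 6.06 CPM in the mutant Thy1+ libraries, lay below all mutant c-Kit+ libraries, with -0.80 (SE 0.29, FDR 0.0701), and *Flt1* also did (as 26.7% of genes tested), with -0.39 (SE 0.19, FDR 0.155). *Kdr* (-0.61, SE 0.30, FDR 0.152), *Pecam1* (-0.51, SE 0.22, FDR 0.119) and *Tie1* (-0.21, SE 0.21, FDR 0.477) overlapped between the populations.

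**Figure D4:**
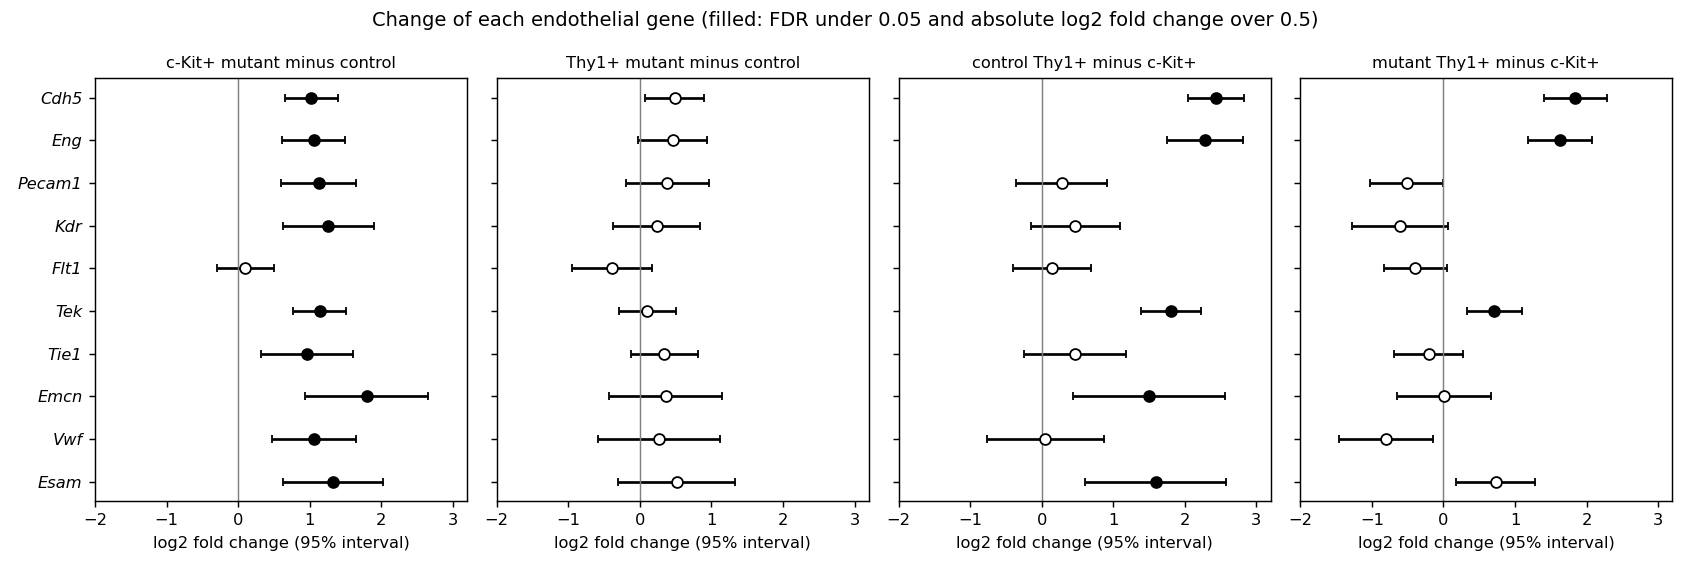
Log2 fold change of each of the 10 genes in 4 comparisons, with 95% intervals; filled points were called. In mutant minus control c-Kit+ cells all genes but *Flt1* are filled at 0.97 to 1.79, no gene is filled in Thy1+ cells (fits without a replicate block), and between the populations *Cdh5*, *Eng* and *Tek* are filled in both genotypes.

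The 76 other vascular genes tested between the mutant populations split, with 23 called higher and 6 lower (median 0.07). With scaling by library size alone the split was 20 higher and 13 lower. The 6 lower in Thy1+ cells were *Ptprb* (23.0 ± 5.28 CPM for c-Kit+ and 13.3 ± 2.34 CPM for Thy1+ cells, FDR 0.0220), *Dll4* (9.23 ± 2.50 and 4.84 ± 0.464 CPM, FDR 0.0211), *Nos3*, which encodes the endothelial nitric oxide synthase (5.78 ± 1.63 and 2.73 ± 0.835 CPM, FDR 0.0294), *Rasip1* (20.4 ± 1.68 and 13.6 ± 1.47 CPM, FDR 0.0178), *Apln* (28.5 ± 3.29 and 16.8 ± 0.316 CPM, FDR 0.00245) and *Cyyr1* (1.15 ± 0.159 and 0.520 ± 0.0863 CPM, FDR 0.0449). Those higher included *Angpt2* (5.37 ± 1.08 and 45.0 ± 10.1 CPM, FDR 3.66e-05) and *Cd34* (88.4 ± 10.51 and 476.6 ± 106.1 CPM, FDR 3.66e-05). All 6 pericyte genes were called higher here as well (median 3.15).

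The genes with the pattern most like that of the 10 were ranked by Pearson's r, over the 12 libraries, between log2(CPM + 0.5) and the mean of the standardized values of the 10. The libraries share their groups and sorts, so r is given as a description. *Ctla2a* came first (r = 0.973), at 1.15 ± 0.391 and 3.61 ± 1.11 CPM in the control and mutant c-Kit+ cells and 2.58 ± 0.768 and 4.11 ± 1.02 CPM in the control and mutant Thy1+ cells. *Ciao2a* (0.955), *Cndp2* (0.954), *Arid1b* (0.95), *Nfkbil1* (0.948), *Ecscr* (0.947), *Plekhg1* (0.947), *Zfand2a* (0.946), *Pcnp* (0.945) and *Mast4* (0.945) followed. *Ecscr*, a surface gene of endothelial cells, is on the longer vascular list (1.89 ± 0.380 and 3.95 ± 1.09 CPM in c-Kit+ cells, and 3.35 ± 0.797 and 3.84 ± 0.564 CPM in Thy1+ cells). Several of the others vary little in level, such as *Ciao2a* from 28.6 ± 2.65 CPM in control c-Kit+ to 36.7 ± 1.03 CPM in mutant Thy1+ cells.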

How the data were processed

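Paired-end reads were trimmed (Trimmomatic 0.39) and aligned to mm10 (HISAT2 2.1.0) by the authors, and featureCounts, version 2.0.3 in the file header, assigned them to RefSeq exons. What was deposited is the raw count of each gene, with no strand option and with both reads of a pair counted, so errors from counting are wider than the totals imply. Totals were 32266861 to 45396233 per library. Of 27179 genes, 25275 were matched to a symbol by gene ID.

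Groups came from the sample titles. The whole table was fitted with edgeR (4.0.16, under R 4.3.3), whose quasi-likelihood F test followed TMM scaling and filterByExpr, with Benjamini-Hochberg adjustment over all genes tested (called at FDR under 0.05 with a log2 fold change beyond 0.5 either way, or at FDR alone for the difference of effects). Genotypes were compared within each population, populations within each genotype, and the difference of effects in a fit of 12 libraries. Standard errors and 95% intervals were taken from the fold change, its F statistic and its degrees of freedom. Alternatives were DESeq2 1.42.0, edgeR's exact test, other scalings and filters, a replicate block, and each library left out. Deviations of same-numbered libraries correlated at 0.118 to 0.198 in c-Kit+, 0.387 to 0.633 in Thy1+ and 0.165 to 0.408 between control populations. Each was over 0.1, so by this rule the numbers pair the libraries in these 3 comparisons. Between mutant populations 1 of 3 was over 0.1, and the numbers do not. The calls given first for each comparison come from fits without a block, also where the numbers pair the libraries. The pairing entered only through the replicate block, as an alternative. The test was tested on simulated counts.

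The 10 genes, the 162 listed genes and all gene lists were chosen with earlier results of these data known. Named genes were the 10, the sorting antigens, *Chd8*, up to 4 genes per list by highest mean CPM, listed genes called against most of their list, and the 10 most alike by correlation. *Hhex*, *Plvap* and others named with an alternative were chosen after their values were seen. Chromatin data of the series were not used here.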

Additional observations from a re-analysis of the deposited data

How the results depend on the processing

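The count of 9 endothelial genes higher in mutant c-Kit+ cells was 9 under every scaling, test and filter tried, and 8 to 9 with 1 library left out. With 1 library left out, 3175 to 4144 of all genes were called in either direction. The vascular genes called there ran from 20 to 40 with 1 library left out (20 without mutant replicate 1, 40 without control replicate 1). Among those 40, *Efnb2* (-0.52, FDR 0.0181) and *Mcam* (-0.51, FDR 2.57e-04) were lower, whereas the main fit called 0 lower. In Thy1+ cells the replicate block, whose pairing comes from the data, called 1 of the 10, 10 other vascular genes and 1414 of all genes, against 0, 0 and 0; DESeq2 called 3 vascular genes, the exact test 4 and the fit of 12 libraries 2, all lower. Between control populations the members called ran from 3 to 5 with 1 library left out (3542 to 5647 of all genes). The block gave 5, and 5231 of all genes. Between mutant populations 1 of 3 same-numbered pairs correlated over 0.1, and the labels do not say whether these libraries are pairs. In this comparison DESeq2 and the exact test called 5 of the 10, and 3999 and 4087 of the 17346 genes tested. *Vwf* was among the DESeq2 calls and was lower (-0.79, FDR 0.0293). Leaving 1 library out gave 2 to 4 of the 10, and 2341 to 5017 of all genes. The block called 6 of the 10 (4 higher and 2 lower) and 3888 of all genes. It called 11 other vascular genes lower, against 6 such genes without it. For the difference of effects DESeq2 called 1 of the 10 and the block called 3 of the 10 (*Eng*, *Kdr* and *Tek*), 5 other vascular genes and 446 of all genes, against 0, 0 and 0. The block moved no other total of endothelial, vascular or all genes called by over 1.5 times. Some values that were not called changed sign: without replicate 1 of both groups, an alternative chosen after seeing the data, *Flt1* was -0.056 in c-Kit+ cells and -0.046 between control populations, *Tie1* was 0.047 and *Emcn* -0.026 between mutant populations. *Emcn* there was also -0.077 by library size, -0.03 in the fit of 12 libraries and -0.003 with the block, and *Vwf* between control populations was -0.036 by library size. With 1 library left out, *Flt1* ran from -0.075 to 0.26 in c-Kit+ cells, *Tek* from -0.04 to 0.203 and *Vwf* from -0.017 to 0.53 in Thy1+ cells, *Pecam1* from -0.011 to 0.49, *Flt1* from -0.072 to 0.32 and *Vwf* from -0.25 to 0.325 between control populations, and *Tie1* from -0.339 to 0.04 and *Emcn* from -0.173 to 0.229 between mutant populations. The causes were not tested. Over all alternatives 154 counts of called genes kept within 1.5 times, 11 were larger and 3 smaller. The 154 include counts of 0 that stayed 0, as most did in Thy1+ cells and for the difference of effects, and those say little on stability. Of values of single endothelial genes, 544 kept their direction and their side of the threshold. Another 16 changed sign, 17 gained a call and 3 lost it. Of the fits with 1 library left out, this tally holds only the lowest and highest fold change of each gene. It thus misses calls lost in the remaining fits. With 1 library left out, *Tie1* lost its call in 3 fits of c-Kit+ cells. Between control populations *Emcn* lost it in 4 and *Esam* in 2, and between mutant populations *Tek* lost it in 3. No other scaling moved the median of all genes by over 0.1. Depth limits *Emcn* most, with 14 to 147 counts per library.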
